A study of Mus musculus with 8 samples.

Results

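The solute carriers are membrane proteins that move sugars, amino acids, metals, ions, vitamins and metabolites across the plasma membrane and the membranes of organelles, and their genes carry symbols that begin with Slc and a family number. The genes described here were chosen by that symbol and selected on their RNA level, with a normalized value of at least 25 in at least 2 of the 4 input libraries, which 173 of the 381 Slc genes in the deposited table reached. C2C12 cells, an immortalized line of mouse myoblasts, were sampled in 2 states on collagen-coated dishes. In GM the cells proliferated in high glucose DMEM with 10% fetal bovine serum and were taken at 50% confluence, and in 3d DM they had passed 90% confluence and had then spent 3 days in high glucose DMEM with 2% horse serum. Each state had 2 input libraries of poly(A) RNA and 2 libraries of fragments immunoprecipitated with an antibody to N6-methyladenosine (m6A), a methyl mark on mRNA (MeRIP-seq). The states differed in serum, in cell density and in time, and these cannot be told apart. No label says whether the 2 replicates of a state were separate cultures, so the spread between them may be technical, and C2C12 is a single line.

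Carriers of the plasma membrane set which nutrients and ions a muscle cell takes up or exports, many of them against a gradient by coupling to sodium or protons. The Slc25 family sits in the inner mitochondrial membrane and exchanges nucleotides, phosphate and metabolites with the matrix. In muscle the group includes the glucose carriers of the Slc2 family, the lactate carriers of the Slc16 family, and the carriers of creatine and taurine, which muscle fibers hold at high concentrations. m6A is written on mRNA mostly within a short sequence named DRACH and is often found near the stop codon and in the 3′ UTR.

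The cells carried the marks of their states. The summed value of the dividing cell markers Mki67, Top2a, Ccnb1 and Cdk1 dropped from 11297 and 12709 in GM to 1224 and 2362 in 3d DM. The summed value of 6 myotube markers (Myog, Myh3, Mymk, Ckm, Acta1 and Tnnt1) went from 4929 and 1115 in GM to 88846 and 127255 in 3d DM, so GM replicate 1 was 4.42 times above GM replicate 2 in these. The 4 myoblast markers Myod1, Myf5, Pax7 and Des summed to 7479 to 14930 in GM and 22351 to 25373 in 3d DM, and this sum rested on Des. The others did not follow it. Myf5 went the other way, from 397 and 355 in GM to 58.5 and 121 in 3d DM, and in Myod1 and Pax7 the states overlapped. Leukocyte markers summed to 9.94 to 27.4, almost all of it Cd68, epithelial markers to 4.16 to 29.6, almost all of it Cdh1, endothelial markers to at most 1.5, and the 3 adipocyte markers were at 0. In these bulk libraries, fewer cells with a transcript and less transcript per cell cannot be told apart. The values are normalized by the authors, every library sums to 12534657 to 12536233, and the sequencing depth is unknown.

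Of the 173 genes, 30 changed between GM and 3d DM, 9 of them higher and 21 lower in 3d DM (limma on log2(value + 1), Benjamini-Hochberg adjusted p under 0.05). The share of 17.3% was close to the 17.0% called among all 11407 genes past the same limit. Higher calls made up 5.20% of the solute carriers and 7.01% of all genes, and lower calls 12.1% and 9.96%. In all 30 the libraries of the 2 states did not overlap, but they were selected by a difference between states, so this adds no support to the calls. Both 3d DM libraries lay above both GM libraries in 30 of the 173 genes (16.8% of all genes), and both GM libraries lay above both 3d DM libraries in 56 (37.0% of all genes). The median log2 change (3d DM minus GM) was -0.13 over the solute carriers and -0.22 over all tested genes, so a gene without a shift of its own sat below 0 on the deposited scale. The median over all tested genes depended on the libraries. It was 0.03 without 3d DM replicate 1, -0.47 without 3d DM replicate 2, -0.11 without GM replicate 1 and -0.34 without GM replicate 2. Over all tested genes the median log2 difference of replicate 1 minus replicate 2 was -0.51 in 3d DM and 0.21 in GM. Rescaling the libraries brought the median of all tested genes to near 0. It also changed the variance estimate, with prior degrees of freedom of 3.82 and 3.79 in place of infinite ones. It gave 20 higher and 21 lower calls with median-of-ratios factors and 20 higher and 22 lower with trimmed-mean factors, which moved the share of lower calls from 70% to 51.2% and 52.4%.

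**Figure D1:**
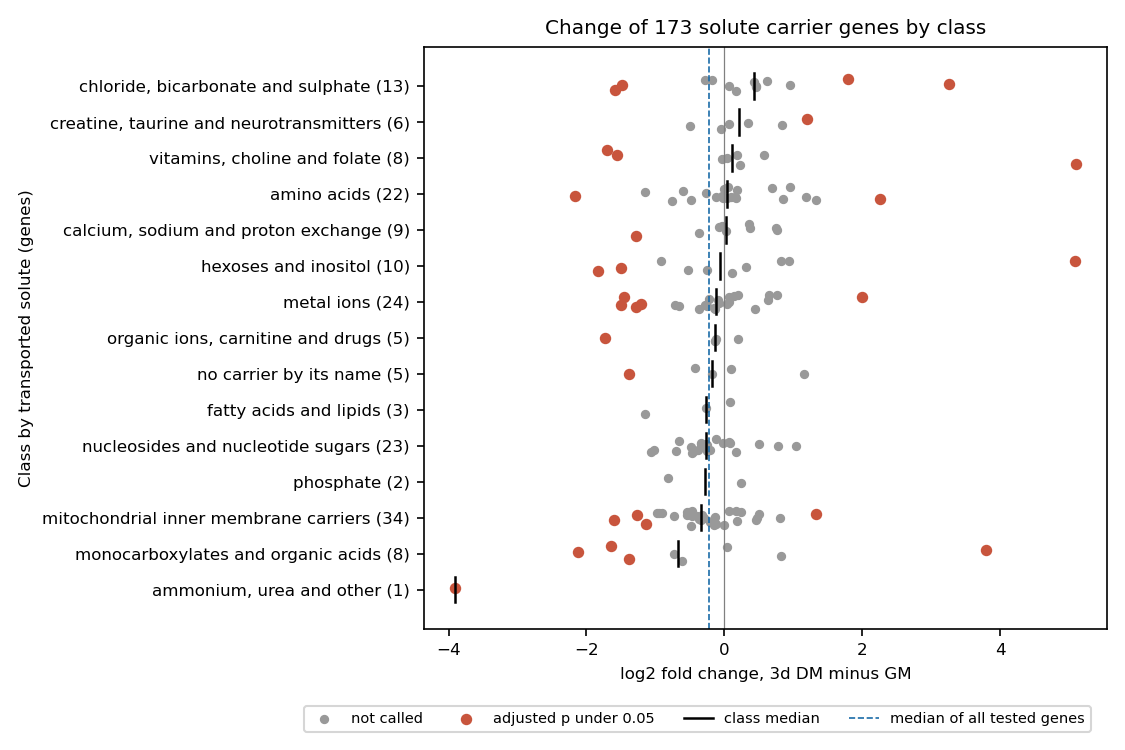
Log2 fold change of each of the 173 solute carrier genes (x axis, 3d DM minus GM), with genes grouped by the solute class assigned to their family, or as no carriers (y axis, number of genes in brackets). Each point is a gene, points in color passed an adjusted p of 0.05, black bars are class medians and the dashed line is the median of all tested genes at -0.22; 7 of the 15 classes held calls on both sides, 5 on one side only, and 3 held none, the largest of which was the 23 nucleoside and nucleotide sugar carriers.

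Classes were set by the family number in the symbol, so a class can hold genes that carry another solute. Of the 10 carriers of hexoses and inositol 1 rose and 2 fell. Slc2a6, which encodes GLUT6, a hexose carrier of lysosomal membranes, had values of 46.8 and 3.04 in the GM libraries and 473 and 468 in the 3d DM libraries (log2 change 5.09 ± 0.53, adjusted p = 1e-19). GM replicate 1 was well above GM replicate 2, and both 3d DM libraries were far above either. The standard error and p came from the trend of variance with expression level over all genes and do not reflect that gap. Without GM replicate 2 the log2 change was 3.30. Slc2a1, which encodes GLUT1, the carrier of basal glucose uptake, had 194 and 319 in 3d DM against 691 and 714 in GM (log2 change -1.49 ± 0.45, adjusted p = 0.0075). Slc5a3, the sodium-coupled carrier of myo-inositol, had 741 and 911 in the GM libraries and 204 and 261 in the 3d DM libraries (log2 change -1.83 ± 0.45, adjusted p = 0.00055). Both were lower in each 3d DM library than in either GM library, as were all called genes that fell, and their 2 GM libraries differed little. The annotation places Slc5a3 inside the gene of the mitochondrial ribosomal protein Mrps6 on the same strand, so reads in exons that they share cannot be assigned to one of them. The other 7 did not pass the test, among them Slc2a8, which encodes GLUT8, at 0.81 (adjusted p = 0.4), and Slc50a1, the mammalian SWEET sugar carrier, at -0.92 (adjusted p = 0.21). Slc5a6, counted here by its family, carries the vitamins biotin and pantothenate and was at 0.93 (adjusted p = 0.21). The insulin-responsive carrier of mature muscle, GLUT4 (Slc2a4), did not reach the limit and was at 3.02 to 10.6 in the 4 libraries, and neuronal GLUT3 (Slc2a3) was at 0.00475 to 5.36.

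Of the 8 monocarboxylate and organic acid carriers 3 fell. Slc16a1 encodes MCT1, which moves lactate and pyruvate with protons, and had 416 and 569 in 3d DM against 1535 and 1508 in GM (log2 change -1.64 ± 0.43, adjusted p = 0.0015). Slc16a11 had 177 and 249.9 in the GM libraries and 35.1 and 64.7 in the 3d DM libraries (log2 change -2.12 ± 0.51, adjusted p = 0.00047), and its neighbor in the family Slc16a13 had 59.0 and 81.4 in 3d DM against 204 and 164 in GM (log2 change -1.39 ± 0.51, adjusted p = 0.039). All 3 were lower in each 3d DM library than in either GM library, as were all called genes that fell. Slc16a3, which encodes MCT4, the lactate exporter of glycolytic muscle, had 75.7 and 57.2 in the GM libraries and 81.5 and 167 in the 3d DM libraries and did not pass the test (log2 change 0.82 ± 0.52, adjusted p = 0.34), with 3d DM replicate 2 alone well above the rest. At the median of all tested genes, too, 3d DM replicate 2 lay above 3d DM replicate 1.

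Among the 22 amino acid carriers 1 rose and 1 fell, and 20 did not pass the test. Slc43a2 encodes LAT4, a carrier of branched-chain and aromatic amino acids that needs no sodium, and had 257 and 415 in 3d DM against 105 and 43.2 in GM (log2 change 2.25 ± 0.49, adjusted p = 6.3e-05). Slc43a3, placed here by its family, had 274 and 226 in the GM libraries and 51.0 and 59.0 in the 3d DM libraries (log2 change -2.16 ± 0.50, adjusted p = 0.00024), so these neighbors in one family moved in opposite directions. Slc7a5 and Slc3a2 encode the light and heavy chains of LAT1, the main leucine carrier of growing cells. Slc7a5 had 1962 and 3771 in 3d DM against 1541 and 1842 in GM (log2 change 0.69 ± 0.41, adjusted p = 0.3), and Slc3a2 had 1565 and 1937 in the GM libraries and 1299 and 2993 in the 3d DM libraries (log2 change 0.18 ± 0.42, adjusted p = 0.86). In both genes 3d DM replicate 2 was far above 3d DM replicate 1, and the difference between states was not larger than that spread. A gap in this direction was not particular to them, since the median log2 difference of 3d DM replicate 1 minus replicate 2 was -0.51 over all tested genes. The cationic amino acid carriers Slc7a1 and Slc7a2 were at -0.27 (adjusted p = 0.77) and 1.33 (adjusted p = 0.052), the cystine carrier Slc7a11 at 0.16 (adjusted p = 0.88), and the glutamine carriers Slc1a5, Slc38a1 and Slc38a2 at -1.15 (adjusted p = 0.099), -0.77 (adjusted p = 0.25) and -0.04 (adjusted p = 0.97). Slc1a4, a carrier of serine and alanine, was at -0.13 (adjusted p = 0.91). Slc1a3, a glutamate carrier, had 71.3 and 76.7 in 3d DM against 77.2 and 18.1 in GM, where GM replicate 1 matched the 3d DM libraries and GM replicate 2 did not. Slc38a4 was at 0.0071 to 8.58 and was not tested.

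Of the 8 vitamin, choline and folate carriers 1 rose and 2 fell. Slc44a4, a choline-like carrier of the family that also holds Slc44a1, had 20.3 and 0.0138 in the GM libraries and 191 and 131 in the 3d DM libraries (log2 change 5.10 ± 0.64, adjusted p = 1.2e-13). It was the 1 gene that passed the limit through 3d DM alone, so a difference was built into its selection, and its value of 0.0138 in GM replicate 2 makes the size of the change depend on the pseudocount. With a pseudocount of 4 the log2 change was 4.04, below the 4.65 of Slc2a6, and without GM replicate 2 it was 2.90. The standard error of 0.64 and the p came from the trend of variance with expression level. They do not reflect the gap between the GM libraries of this gene. Slc19a1, the reduced folate carrier, had 55.6 and 99.5 in 3d DM against 155 and 316 in GM (log2 change -1.56 ± 0.50, adjusted p = 0.013). Slc19a2, a thiamine carrier, had 168 and 296 in the GM libraries and 48.1 and 95.2 in the 3d DM libraries (log2 change -1.70 ± 0.50, adjusted p = 0.0059). In both, GM replicate 2 was the highest library and 3d DM replicate 1 the lowest. At the median of all tested genes, 3d DM replicate 1 was also the lower 3d DM library. The choline carrier Slc44a1 was at 0.58 (adjusted p = 0.45). The largest fall was that of Slc14a1, a urea channel and the 1 gene of its class, with 2.55 and 2.90 in 3d DM against 80.1 and 37.1 in GM (log2 change -3.90 ± 0.73, adjusted p = 1.8e-06). Slc14a1 and Slc4a11 passed the limit through GM alone, so they too had to differ.

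Ion carriers moved in both directions. Of 13 carriers of chloride, bicarbonate and sulphate, 2 rose, 2 fell and 9 did not pass the test. Slc4a3 encodes AE3, the chloride and bicarbonate exchanger of excitable tissues and heart, and had 149.6 and 66.3 in the GM libraries and 789 and 1172 in the 3d DM libraries (log2 change 3.26 ± 0.46, adjusted p = 6.1e-11). Slc12a2 encodes NKCC1, which takes up sodium, potassium and chloride together and sets cell volume, and had 823 and 1253 in 3d DM against 254 and 337 in GM (log2 change 1.79 ± 0.44, adjusted p = 0.00062). For Slc12a2 the 2 GM libraries were close to each other. Slc4a8, a sodium-driven chloride and bicarbonate exchanger, had 267 and 158 in the GM libraries and 61.6 and 85.9 in the 3d DM libraries (log2 change -1.48 ± 0.50, adjusted p = 0.022). Slc4a11 had 21.5 and 21.9 in 3d DM against 67.2 and 67.2 in GM (log2 change -1.59 ± 0.60, adjusted p = 0.047), with near-equal replicates in both states. Of 9 exchangers of calcium, sodium and protons, Slc9a5, a sodium and proton exchanger, fell and the other 8 did not pass the test. Slc9a5 had 285 and 257 in the GM libraries and 92.4 and 133 in the 3d DM libraries (log2 change -1.28 ± 0.48, adjusted p = 0.047). Slc8b1, the sodium and calcium exchanger of mitochondria, was at 0.36 (adjusted p = 0.71). Slc8a1, the sodium and calcium exchanger of heart, was low, with 32.2 and 45.9 in 3d DM against 19.9 and 25.1 in GM, close to the limit. Its skeletal muscle relative Slc8a3 reached at most 1.54, Slc4a4 reached at most 10.02, and Slc24a2 was at 0 in every library.

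Slc6a6, the taurine carrier, was the most abundant solute carrier of the plasma membrane per kb of exon. Its values were 5611 and 3568 in the GM libraries and 8659.7 and 12078 in the 3d DM libraries (log2 change 1.19 ± 0.40, adjusted p = 0.022). As in all called genes, the states did not overlap. Per kb of exonic length its mean level was 543 in GM and 1226 in 3d DM. Slc6a8, the creatine carrier of the same family, had 685 and 967 in 3d DM against 932 and 644 in GM (log2 change 0.07 ± 0.43, adjusted p = 0.95), and the states overlapped. The glycine carrier Slc6a9 had 270.3 and 187 in the GM libraries and 276 and 582 in the 3d DM libraries (log2 change 0.83 ± 0.46, adjusted p = 0.24).

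Among the 24 carriers of metal ions 1 rose and 4 fell. Slc40a1 encodes ferroportin, the iron exporter, and had 105 and 127 in 3d DM against 60.3 and 13.1 in GM (log2 change 1.99 ± 0.56, adjusted p = 0.0036). Its rise depended on GM replicate 2, without which its log2 change was 0.93. Slc48a1, a heme carrier, had 1501 and 924 in the GM libraries and 359.9 and 477 in the 3d DM libraries (log2 change -1.51 ± 0.44, adjusted p = 0.005). The 3 zinc carriers that fell were Slc39a10 and Slc39a6, which bring zinc into the cytosol, and Slc30a4, which moves it out of the cytosol. Slc39a10 had 87.7 and 157 in 3d DM against 294 and 353 in GM (log2 change -1.45 ± 0.48, adjusted p = 0.017), and Slc39a6 had 1355 and 1312 in the GM libraries and 449 and 668 in the 3d DM libraries (log2 change -1.28 ± 0.43, adjusted p = 0.021). Slc30a4 had 766 and 1144 in 3d DM against 2677 and 1748 in GM (log2 change -1.21 ± 0.42, adjusted p = 0.028). In the Slc39 family 2 of 9 genes fell and in the Slc30 family 1 of 6, and none rose. Slc39a14, a carrier of iron, zinc and manganese, was at -0.22 (adjusted p = 0.83), Slc11a2, the ferrous iron carrier DMT1, at 0.44 (adjusted p = 0.61), and the magnesium carrier Slc41a1 at -0.07 (adjusted p = 0.95). The manganese exporter Slc30a10 was at 0 in every library.

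The 34 mitochondrial carriers of the Slc25 family held 3 that fell, 1 that rose and 30 that did not pass the test. Slc25a10, which exchanges dicarboxylates for phosphate, had 540.3 and 557 in the GM libraries and 143 and 229 in the 3d DM libraries (log2 change -1.60 ± 0.46, adjusted p = 0.0045). Slc25a24, the calcium-regulated carrier of ATP-Mg, had 708 and 892 in 3d DM against 1913 and 1912 in GM (log2 change -1.27 ± 0.42, adjusted p = 0.02), with equal GM replicates. Slc25a39, a mitochondrial glutathione carrier, had 1721 and 1205 in the GM libraries and 552 and 772 in the 3d DM libraries (log2 change -1.14 ± 0.43, adjusted p = 0.047). Slc25a29, a carrier of basic amino acids, rose, with 151 and 227 in 3d DM against 129.7 and 41.2 in GM (log2 change 1.33 ± 0.50, adjusted p = 0.049). Without GM replicate 2 its log2 change was 0.51. The ADP and ATP carriers Slc25a5 and Slc25a4 were the most abundant solute carriers per kb of exon, at a mean of 2169 and 1736. Slc25a5 had 4325 and 5013 in the GM libraries and 1914 and 3028 in the 3d DM libraries (log2 change -0.95 ± 0.41, adjusted p = 0.097), and Slc25a4, the form of heart and muscle, had 2873 and 4002 in 3d DM against 4792 and 4669 in GM (log2 change -0.48 ± 0.41, adjusted p = 0.52). Both were lower in each 3d DM library than in either GM library without passing the test. That order was common, in 15 of the 34 genes and in 37.0% of all tested genes. Reads of Slc25a5 may be shared with its many processed pseudogenes. The phosphate carrier Slc25a3 was at -0.33 (adjusted p = 0.7), the carnitine and acylcarnitine carrier Slc25a20 at 0.48 (adjusted p = 0.61), and the iron carrier Slc25a37 at -0.48 (adjusted p = 0.56). Of the 34 genes, 25 had a log2 change below 0, as did 7213 of all 11407 tested genes, and 15 lay above the median of all tested genes.

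None of the 23 carriers of nucleosides and nucleotide sugars passed the test, and their log2 changes ran from -1.07 to 1.04. Slc29a1, which encodes the nucleoside carrier ENT1 and came next to Slc6a6 among plasma membrane carriers in level per kb of exon in 3d DM but not in GM, had 1726 and 1689.9 in the GM libraries and 2458 and 4997 in the 3d DM libraries (log2 change 1.04 ± 0.41, adjusted p = 0.066). Of the 5 carriers of organic ions, Slc22a4, which carries ergothioneine, fell, with 8.57 and 28.0 in 3d DM against 57.8 and 51.2 in GM (log2 change -1.73 ± 0.63, adjusted p = 0.036), while the carnitine carrier Slc22a5 was at -0.12 (adjusted p = 0.93). None of the 3 fatty acid carriers passed, with Slc27a1, which encodes FATP1, just short with 988 and 781 in the GM libraries and 321 and 483 in the 3d DM libraries (log2 change -1.16 ± 0.44, adjusted p = 0.05), and neither of the 2 phosphate carriers did, with Slc20a1 at -0.81 (adjusted p = 0.21). The symbol also picked up 5 genes that are no carriers, of which the scaffold gene Slc9a3r1, a partner of sodium and proton exchangers, fell, with 99 and 157 in 3d DM against 379 and 284 in GM (log2 change -1.39 ± 0.47, adjusted p = 0.024).

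**Figure D2:**
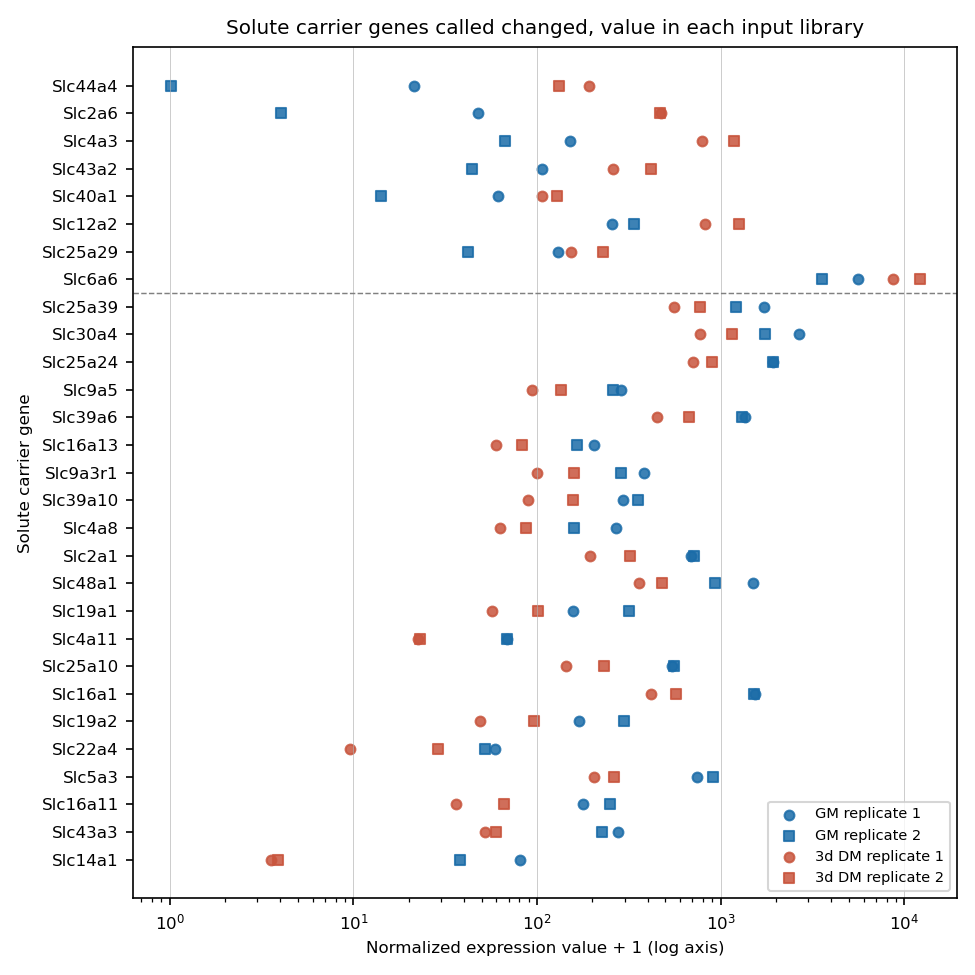
Normalized value plus 1 on a log axis (x axis) of 29 of the 30 solute carrier genes called changed (y axis, ordered by log2 change) in each of the 4 input libraries. Blue points are GM and red points 3d DM, circles are replicate 1 and squares replicate 2; the 8 genes above the dashed line were higher and the 21 below it lower in 3d DM, and GM replicate 1 lay well above GM replicate 2 for Slc44a4 and Slc2a6.

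GM replicate 1, the GM library with the higher myotube marker sum, was also the higher GM library in 8 of the 9 genes that rose. It was the higher one in 71.7% of all the solute carriers and in 67.5% of all tested genes, and in 83% of all the genes that rose. Whether this had a part in their values was not tested. Without it 8 genes were called higher and 5 lower, and without GM replicate 2 the numbers were 3 and 2. Without 3d DM replicate 1 no gene was called in either direction, and without 3d DM replicate 2 there were 0 higher and 7 lower. Slc2a6, Slc4a3 and Slc43a3 kept their call when either GM library was left out, as did Slc44a4 and Slc14a1, which had to differ by how they passed the limit. In these fits the lone library of a state is assumed to vary like the others. With all 4 libraries, and without either GM library, standard errors followed the trend with expression level alone, so those p-values do not measure the replicate spread of a single gene. Without either 3d DM library the fit gave finite prior degrees of freedom (4.26 and 4.18) and each gene's own spread entered, so these numbers of calls also come from another variance estimate.

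Of 70 listed genes that work with the carriers or act beside them, 55 passed the limit. Of these, 8 rose and 3 fell (14.5% and 5.45%, against 7.01% and 9.96% of all tested genes). Atp1b1, a subunit of the sodium pump, which maintains the gradient that sodium-coupled carriers use, was at 1.32 (adjusted p = 0.024). The creatine kinases Ckm and Ckb rose by 5.38 (adjusted p = 4.5e-29) and 2.11 (adjusted p = 2.4e-05), whereas the creatine carrier Slc6a8 did not pass the test. Tbc1d1, which restrains GLUT4 vesicles, was at 1.22 (adjusted p = 0.034), and the mitochondrial carrier Ucp2 at 2.41 (adjusted p = 2.8e-06). The organic anion carriers, whose symbols begin with Slco, moved both ways. Slco4a1 had 234 and 152 in the GM libraries and 4.94 and 4.29 in the 3d DM libraries (log2 change -5.08 ± 0.62, adjusted p = 1.7e-14), Slco5a1 had 121 and 90.2 in 3d DM against 2.02 and 6.01 in GM (log2 change 4.52 ± 0.67, adjusted p = 5.8e-10), and Slco3a1 was at 1.22 (adjusted p = 0.038). The heme exporter Flvcr1 fell at -1.53 (adjusted p = 0.021), as did Mfsd10 at -1.32 (adjusted p = 0.045). None of the 3 tested chaperones of carriers passed, and Bsg, the chaperone of MCT1, had 5428 and 3877 in the GM libraries and 3419.8 and 4480.1 in the 3d DM libraries.

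In the m6A data, 123 of the 173 genes had a peak in at least 1 of the 4 lists (71.1%, against 75.1% of all tested genes), 51 had one in all 4 (29.5% against 42.0%) and 50 had none. The lists held a peak on 91 and 94 solute carriers in GM and on 99 and 68 in 3d DM. The mean was 92.5 ± 2.12 in GM and 83.5 ± 21.9 in 3d DM (SD, n = 2), and the difference was smaller than the spread between the 3d DM lists (two-sided exact permutation p = 1, where 0.33 is the smallest that 2 lists against 2 allow). Distinct peaks numbered 148, 134, 153 and 97 in GM replicates 1 and 2 and 3d DM replicates 1 and 2. Peaks were listed for 19 of 22 amino acid carriers and 18 of 34 mitochondrial carriers. All these counts use current symbols. Slc66a1, in the amino acid class, and Slc49a4 had a peak in GM replicate 2 under older symbols and are counted as without one. Other genes were not searched under older symbols, among them Slc66a2 of the same class, which is also counted as without a peak. The genes with a peak had a median value of 302 and a median exonic length of 5318 bases, and those without one 91.9 and 3838, so the 2 groups also differed in level and length. The median fold of immunoprecipitated over input RNA on solute carriers was 4.19, 4.21, 3.53 and 4.18 in the 4 lists in the same order. Over all genes it was 4.53, 4.11, 3.92 and 4.38, also lowest in 3d DM replicate 1.

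Most of these peaks lay in the 3′ UTR. Peak centers were placed on the transcript named in the list with the GENCODE M21 annotation, which was possible for 91.9% of the peaks on solute carriers. The 3′ UTR held 64.5% and 66.1% of the centers in GM and 68.3% and 71.6% in 3d DM, whereas over all genes it held 39.0% to 42.3%. The coding sequence held 28.3%, 27.3%, 28.2% and 21.6% of the centers, and over all genes 55.1% to 58.8%. In every list the solute carriers were above all genes in the 3′ UTR and below them in the coding sequence, which is a description of 4 lists and was not tested. The transcripts themselves also differed, since the 3′ UTR made up 52.1% of the bases of the 114 solute carrier transcripts with a placed peak and 42.1% over all genes. Within 200 nt of the end of the coding sequence lay 21.8% to 24.8% of the centers, and over all genes 23.9% to 29.3%. By the region labels of the deposited lists, the share of peaks that touch the coding sequence was 46.8% ± 0.278 in GM and 38.8% ± 2.41 in 3d DM (SD, n = 2), a difference of 8.0 percentage points (two-sided exact permutation p = 0.33, the smallest possible), and over all genes 69.7% and 67.5%.

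**Figure D3:**
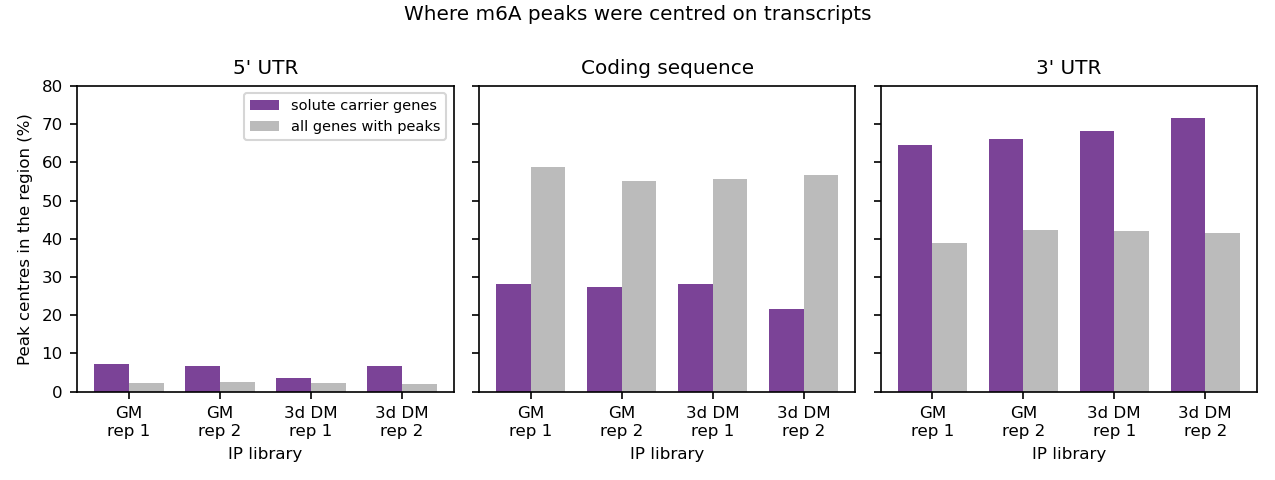
Share of peak centers (y axis, %) in the 5′ UTR, the coding sequence and the 3′ UTR in each of the 4 IP libraries (x axis), for solute carrier genes and for all genes with peaks. Each bar is 1 library without an error bar; in each library the solute carriers had 64.5% to 71.6% of their centers in the 3′ UTR, above the 39.0% to 42.3% of all genes.

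The DRACH sequence was searched in the 100 bases around each peak center as A, G or T, then A or G, then AC, then A, C or T, on the RNA strand. It was present in 88.4% to 93.4% of the windows on solute carriers and in 89.5% to 90.7% of all peak windows, and in 80.3% of the 3647 windows of the same length on solute carrier transcripts outside peaks. GGACT, a frequent form of it, was present in 16.2% to 19.0% of the windows on solute carriers, in 13.0% to 14.3% of all peak windows and in 8.94% of the windows outside peaks on solute carriers.

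Peaks found in both lists of one state and in neither of the other marked 8 genes. Both GM lists and no 3d DM list held a peak on 5 genes (2.89% of the solute carriers, against 2.63% of all genes), among them Slc1a5, Slc48a1, Slc50a1 and Slc9a3r1, and both 3d DM lists and no GM list on Slc12a2, Slc1a4 and Slc37a2 (1.73% against 1.72%). These shares were near the background. The fold was 2.70 and 3.91 at the start of the 3′ UTR of Slc1a5, which also had a peak of 3.99 in the 5′ UTR in one GM list and of 10.2 in the coding sequence in the other. It was 1.60 and 1.53 for Slc48a1, 2.58 and 2.89 for Slc50a1, and 3.74 and 3.16 for Slc9a3r1. In 3d DM it was 4.81 and 3.09 for Slc12a2, 2.65 and 6.40 for Slc1a4, and 6.70 and 7.52 for Slc37a2. For Slc48a1 and Slc1a4 the peaks of the 2 lists did not overlap, so they were not the same position. Slc48a1 and Slc9a3r1 fell in RNA and Slc12a2 rose, in the direction in which their peaks were listed, and the other 5 did not change in RNA by the test. Solute carriers with a peak in any list had a median value of 302 and those without one 91.9. Whether RNA level affected which peaks were listed was not tested.

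To show what the marked positions look like, the sequence around the DRACH match nearest to the center of the strongest peak is given for 8 genes, namely 5 of the genes with peaks in one state only, the gene with the smallest p in the comparison of peak strength, and 2 genes among the largest changes in RNA. Coordinates are mm10 and 1-based, the RNA sequence is written 5′ to 3′ as DNA letters, and capitals mark the DRACH match.
Slc9a3r1, chr11:115180626-115180646, plus strand: ccacttccTGACAaatctgat
Slc50a1, chr3:89268424-89268444, minus strand: ggtccttgTGACCagttccat
Slc48a1, chr15:97791678-97791698, plus strand: cttctctgTAACCttctctga
Slc37a2, chr9:37231431-37231451, minus strand: aacatggcAGACTtcaaggcc
Slc1a4, chr11:20303682-20303702, minus strand: gtttgagtAAACCataaactc
Slc39a13, chr2:91062514-91062534, minus strand: aaagaaaaAAACAaaccctct
Slc16a1, chr3:104655712-104655732, plus strand: gccctgtcTGACCtgtgaagc
Slc25a10, chr11:120498685-120498705, plus strand: aggagaggGGACAggcaggca
The methylatable A of the match lay in the 3′ UTR in 7 of these 8 and in the coding sequence of Slc16a1, where it was the last base of the stop codon TGA. In the 3′ UTR, 62 bases separated it from the stop codon in Slc50a1, 126 in Slc9a3r1, 199 in Slc37a2 and 378 to 964 in the others. A match shows only that these letters are present and does not place the mark on that base.

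Slc5a3 had the most peak positions, 8 over the 4 lists, with 7 and 2 distinct peaks in the GM lists and 3 and 1 in the 3d DM lists. Its highest fold per list was 15.7, 7.30, 22.2 and 9.19 in that order, while its RNA fell. Slc16a13 and Slc41a1 followed with 6 positions each and Slc22a23 with 5. Of the 9 genes that rose in RNA 7 had a peak in some list, and of the 21 that fell 18 had one. So did 98 of the 143 solute carriers not called (68.5%) and 75.1% of all tested genes. With so few called genes these shares were not compared by a test. Slc2a1 had 1 position in all 4 lists, with a fold of 4.72 and 4.89 in the GM lists and 6.88 and 4.87 in the 3d DM lists. Slc6a6 had peaks in all 4 lists with folds of at most 3.61. Slc2a6 had a peak in GM replicate 2 with a fold of 6.26 although its value in the matched input was 3.04, and in both 3d DM lists with 3.21 and 5.59. No peak was listed for Slc44a4, Slc40a1, Slc19a2, Slc22a4 or Slc4a11. The median log2 change in RNA was -0.19 for the genes with a peak and 0.02 for those without, a difference not tested.

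Peak strength was compared at the 58 positions on 49 solute carriers that had a peak in all 4 lists. None passed the test (limma on log2 fold, smallest adjusted p = 0.996), none had an unadjusted p under 0.05, and of all 6055 positions of any gene 0% passed the adjusted and 3.44% the unadjusted threshold. With 2 lists in each state the absence of calls does not show that strength was the same. The median log2 difference (3d DM minus GM) was -0.02 on solute carriers and -0.11 over all positions. Both GM lists lay above both 3d DM lists at 11 of the 58 positions (21.8% of all positions), and both 3d DM lists lay above both GM lists at 1 (9.13% of all positions). The lowest p belonged to the 3′ UTR of Slc39a13, a zinc carrier of the secretory pathway, with a fold of 4.40 and 4.43 in GM against 2.65 and 2.63 in 3d DM (log2 difference -0.74 ± 0.37, unadjusted p = 0.068). Slc25a28, a mitochondrial iron carrier, had 5.51 and 7.60 in GM against 2.44 and 5.22 in 3d DM (unadjusted p = 0.10). Slc52a2, a riboflavin carrier, had 16.6 and 11.6 in GM against 3.74 and 11.7 in 3d DM (unadjusted p = 0.12), where 3d DM replicate 1 alone was low. The highest fold of any solute carrier, 40.9, belonged to Slc35e1 in 3d DM replicate 2, beside 8.93 in the other 3d DM list and 6.85 and 10.1 in GM.

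**Figure D4:**
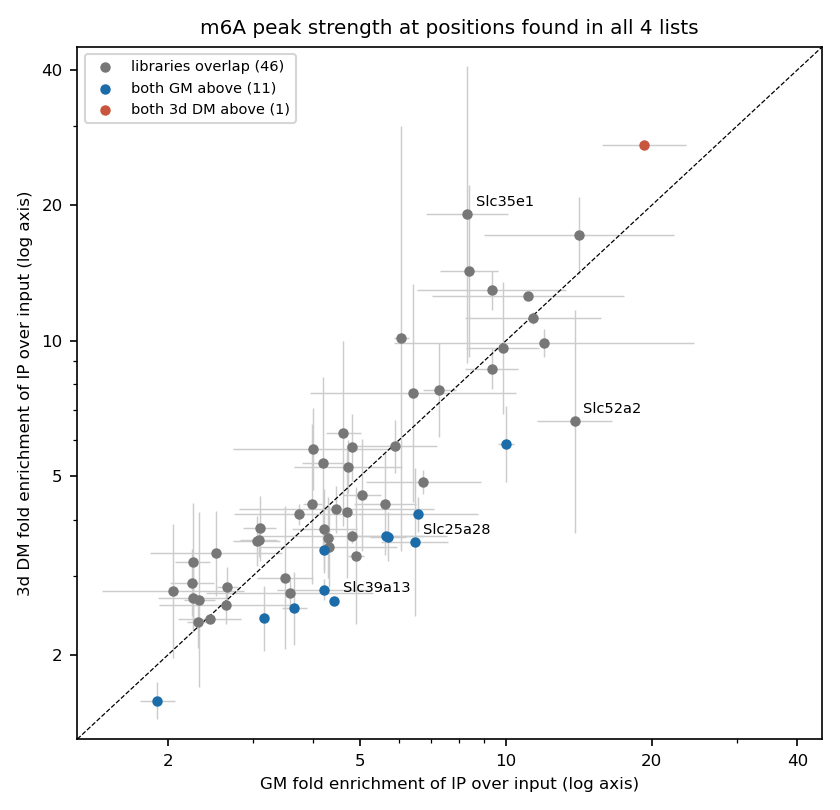
Fold enrichment of immunoprecipitated over input RNA in GM (x axis) and 3d DM (y axis), both log axes, at the 58 positions on solute carrier genes with a peak in all 4 lists. Points are geometric means of 2 lists, grey lines run to the values of the single lists and the dashed line marks equality; 11 positions had both GM lists above both 3d DM lists, 1 had the reverse and 46 overlapped.

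At the edge of the limit, the genes just inside were Slc22a21, with a second highest value of 25.1, Slc25a23 with 26.4 and Slc8a1 with 32.2. Those just outside were Slc25a13 with 24.1, Slc43a1 with 22.1 and Slc25a35 with 20.1. Of the 208 Slc genes under the limit, 100 were below 1 in every library.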

How the data were processed

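Processed files of 4 input and 4 m6A immunoprecipitated libraries of C2C12 cells were used, and groups were taken from the labels. The authors aligned reads to mm10 with HISAT2 (version 2.1.0), as their processing notes name it, and handled gene counts with edgeR. The deposited expression table holds a normalized signal (TMM in its name) and no counts, from which whole reads could not be rebuilt, so depth is unknown. The authors called peaks with exomePeak for each library, and each deposited list gives a p-value and a fold, the ratio of IP over input, per peak and protein-coding transcript. Whether counting used strand is not given in the sources used here.

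Entrez identifiers were named with RefSeq (98.7% of the tested genes matched). The genes, classes and lists were chosen with earlier results of these data known. Genes with a value of at least 25 in at least 2 of 4 input libraries entered a limma fit (version 3.58.1 in R 4.3.3) of log2(value + 1), with the prior variance following expression level and p-values adjusted by Benjamini-Hochberg. Values after ± in log2 changes are standard errors, and a change on this scale understates that of low genes. For RNA the standard errors followed the trend with expression level alone and do not measure the replicate spread of a single gene. A distinct peak joins the lines of 1 gene and strand whose exonic blocks overlap by 1 bp or more. The same fit was run on log2 fold at positions with a peak in all 4 lists, and other comparisons used exact permutation tests. Both fits were tested on simulated data. The simulated spread followed expression level in the RNA fit and was constant in the fit of peak strength. Genes whose replicates disagree more than others were therefore not covered. Levels between genes were divided by the exonic length in GENCODE M21, which 172 of the 173 genes have. Named genes were the 8 largest rises and falls, the largest call per class and direction, a fixed list of well-known carriers, the most abundant, those with peaks in a single state, the lowest p-values of peak strength, those at the limit and those with the most peaks, and a few of these genes and sequences are not reported here. Peaks were matched by current symbol, and Slc49a4 and Slc66a1, which the lists give under the older symbols Dirc2 and Pqlc2 with a peak in GM replicate 2, count as without a peak. No other older symbol was searched, so Slc66a2, the gene without an exonic length, counts as without a peak by its current symbol alone.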

Additional observations from a re-analysis of the deposited data

How the results depend on the processing

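With a value of at least 25 in all 4 libraries, 5 solute carriers were called higher in 3d DM in place of 9, since 17 fewer genes were tested. Rescaling gave 20 higher calls with either set of factors, of which 7 were also called on the deposited scale, and 19 of the lower calls remained. With the replicate number as a replicate block, 7 were higher and 7 lower. The cause was not tested. The deviations of same-numbered libraries had a correlation of 0.29 over genes, but no label ties the numbers to a batch and there are only 2 pairs, so the libraries share only a number. Leaving out 1 library gave 0 to 8 higher and 0 to 7 lower calls. Over 65 named genes and 13 alternatives (833 fits), 135 values lost their call, 15 gained one and 683 stayed on their side. No called gene changed direction. For genes called with all 4 libraries, whose states did not overlap, most alternatives could not have reversed the sign, so this adds no support. Among genes called in neither fit, 38 values of 15 genes changed sign. Slc7a2, Slc29a1, Slc6a9, Slc7a5, Slc44a1 and Slc27a1 were called only in some of these alternatives, rescaling among them.

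The difference in the number of solute carriers with a peak ran from -6.5 to 24.5 when 1 list was left out, and the negative value, -6.5, came without 3d DM replicate 2. The difference of 8.0 points in the coding sequence ran from 5.59 to 11.1 under the other alternatives. In the replicate block these 2 differences kept their values of 9 and 8.0, with an exact p of 1 and 0.50, where 0.50 is the smallest that 2 pairs allow. In that block 0 peaks changed in strength. No alternative called a change in peak strength on a solute carrier. With unknown depth, low values and peaks missing from a list carry no counting error.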

Other observations

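Among the 208 Slc genes under the limit, 9 had an m6A peak in at least 1 list. Slc15a3, a peptide and histidine carrier of lysosomes, had 1 distinct peak in each of the 4 lists although its values were 6.29 and 6.02 in GM and 0 in both 3d DM libraries. Slc24a5 had peaks in both GM lists and in 3d DM replicate 1, with values of 5.14 to 7.36. Slc16a6 had a peak in replicate 1 of both states, and Slc26a10 had peaks in both GM lists and in 3d DM replicate 2. Slc43a1, the LAT3 amino acid carrier of the family of Slc43a2 and Slc43a3, had a peak in GM replicate 2 and 3d DM replicate 1, with values of 14.7 to 33.0. Slc6a19, a carrier of neutral amino acids known from kidney and intestine, had the highest value under the limit, at 0 and 1.00 in GM against 19.1 and 60.8 in 3d DM, with 1 peak in 3d DM replicate 2. Slc5a5 and Slc6a20b had 1 peak each in the same list, and Slc7a4 had 1 in GM replicate 2. Their values are listed without a test. Slc13a1 was at 1.06 and 0.00104 in GM against 11.3 and 11.7 in 3d DM, and Slc25a13, a mitochondrial aspartate and glutamate carrier just outside the limit, at 24.1 and 28.1 in GM against 2.99 and 9.13 in 3d DM.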
